A study of Daphnia magna with 3 samples.

Results

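Records of the genes that encode mitochondrial ribosomal proteins were examined in wild-type Daphnia magna, a planktonic crustacean. Members were chosen by their description alone, which had to name a 28S, 39S or mitochondrial ribosomal protein, and descriptions of 40S or 60S proteins and of methyltransferases were left out. A total of 97 of the 47109 gene records met this rule, and no measured value entered it. RNA sequencing was available from 3 libraries, all of 1 group, so that no contrast between conditions was made. Each library came from whole bodies of 5 pooled adults of the NIES strain, all female and 12 days old, which were wild type, had been fed under nutrient-rich conditions and had just released the second clutch, with the eggs flushed from the brood chamber. None carried a mutation or received a treatment, and embryos in the brood chamber are not part of the measurement. The labels number the samples without naming separate cultures. The methods of the study describe every treatment as repeated to give triplicate samples of individually cultured animals, and state that the present libraries were prepared elsewhere under matching culture and procedures. The p-values below measure the spread between these samples, in which pools and library preparations cannot be told apart.

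Mitochondria keep a ribosome of their own, which makes the few respiratory chain proteins still encoded by the mitochondrial genome. Its RNAs are transcribed in the organelle, whereas all of its proteins in animals are encoded in the nucleus, made in the cytosol and imported. In mammals the small subunit is called 28S and the large subunit 39S after their sedimentation, and these names were carried into the descriptions of the D. magna records. Part of the proteins have a counterpart in bacterial ribosomes, and the others are particular to mitochondrial ribosomes. The proteins of the cytosolic ribosome come from a separate set of genes.

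Gene records received 8843488, 8679171 and 9092389 counts in replicates 1, 2 and 3, and 19927 records were detected in every library. Transcripts for proteins of muscle, yolk, blood and gut were all present in these whole bodies, found only by words in the descriptions. Summed means were 3563 CPM for myosin heavy chain, 19131 CPM for vitellogenin and 8912 CPM for hemoglobin. Records whose description contains the word trypsin had 2198 CPM. In replicates 1, 2 and 3 myosin heavy chain had 4437, 4014 and 2240 CPM, and vitellogenin 19566, 23449 and 14379 CPM. Hemoglobin had 7371, 8972 and 10394 CPM, and trypsin 2199, 2183 and 2211 CPM. CPM here means counts scaled to library size with TMM, a trimmed mean normalization, and it was used to compare libraries. TPM, a transcript level that is corrected for length, was used to compare genes. In whole-body RNA, fewer cells of a type and less RNA per cell cannot be told apart.

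The 97 records carried 73 protein names, of which 24 belong to the small subunit and 48 to the large subunit, and S36 was placed in neither. S30 and S18a were counted in the large subunit, where the mammalian ribosome holds them despite their letter. Counts were found in all 3 libraries for 79 records, 17 records had no count in any library, and 1 record, of S29, had counts in replicate 3 only. A count of 0 allows up to 0.354, 0.353 and 0.309 CPM in replicates 1, 2 and 3, counting error only. Of the 17 empty records, 15 overlapped another record of the same protein, and in 13 of these cases that other record had counts. In all, 69 of the 73 proteins had a record with a mean count of at least 10. None of the 97 members was described as S6, S9, S12, L14 or L20, all of which are mitochondrial ribosomal proteins in mammals. S12, which lies at the decoding centre in bacteria, was represented by a record outside the rule, described as a 40S protein S12 of mitochondria. It had 187, 161 and 210 counts, or 45.4, 38.9 and 46.8 TPM (43.7 ± 4.23, SD, n = 3), and did not pass the chi-square test for a difference between libraries described below (adjusted p = 0.384). By its 40S name it was counted in the cytosolic list.

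The mitochondrial ribosomal proteins lay well above the middle of the transcriptome and close to each other. Their median level was 33.4 TPM in replicate 1, 29.98 in replicate 2 and 36.3 in replicate 3, against 6.02, 6.23 and 6.34 TPM over all detected records. The mean of these medians was 33.2 ± 3.16 TPM (SD, n = 3). Among records averaging 10 or more counts, the median was 35.4 TPM in members and 10.8 TPM in all records. Records of like length and mean count had medians of 19.2, 19.0 and 21.2 TPM in replicates 1, 2 and 3. Members averaging 10 or more counts ran from 19.7 to 61.4 TPM between the 10th and 90th percentile. This was a 3.12-fold range, whereas all records of that depth spanned 45.7-fold. The share of all counts that fell in the 97 records was 0.196% in replicate 1, 0.182% in replicate 2 and 0.226% in replicate 3.

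Genes of the cytosolic ribosome and of the respiratory chain were far more abundant. The comparison lists were drawn by words in the descriptions. The respiratory chain list also takes mitochondrial ATP synthase subunits and every record described as NADH dehydrogenase [ubiquinone], assembly factors included if so named. The median cytosolic ribosomal protein record, of 85 detected in every library, stood at 833, 1144 and 1216 TPM in replicates 1, 2 and 3, which is 25.0, 38.2 and 33.5 times the mitochondrial median. The mean ratio was 32.2 ± 6.69 (SD, n = 3), and 33.0 ± 5.88 (SD, n = 3) without the S12 record named for mitochondria. Nuclear-encoded respiratory chain subunits, whose partners are made by the mitochondrial ribosome, had a median TPM 3.79, 4.72 and 4.53 times that of the members. Both ratios were lowest in replicate 1 and highest in replicate 2. Mitochondrial translation factors and tRNA ligases lay lower, and the members exceeded their median TPM 2.97 ± 0.196-fold (SD, n = 3). The words used for this list also matched a mitochondrial transcription elongation factor. Genes for assembly of the mitochondrial ribosome and modification of its RNA were also lower, by 2.26 ± 0.227-fold (SD, n = 3). In every library the order of the medians was the same: cytosolic ribosomal proteins, respiratory chain, mitochondrial ribosomal proteins, assembly genes, then factors and ligases. The 10th to 90th percentile range at 10 or more counts was 4.54-fold in factors and ligases and 5.70-fold in assembly genes. It was 19.8-fold in the respiratory chain and 72.7-fold in cytosolic ribosomal proteins. Records overlapping another made up 87.0% of the cytosolic list, 82.3% of the respiratory chain list and 66.0% of the members. With 1 record per protein the members spanned 3.04-fold. The other lists were not reduced in this way, so the part of split or secondary records in their wider ranges was not tested.

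**Figure D1:**
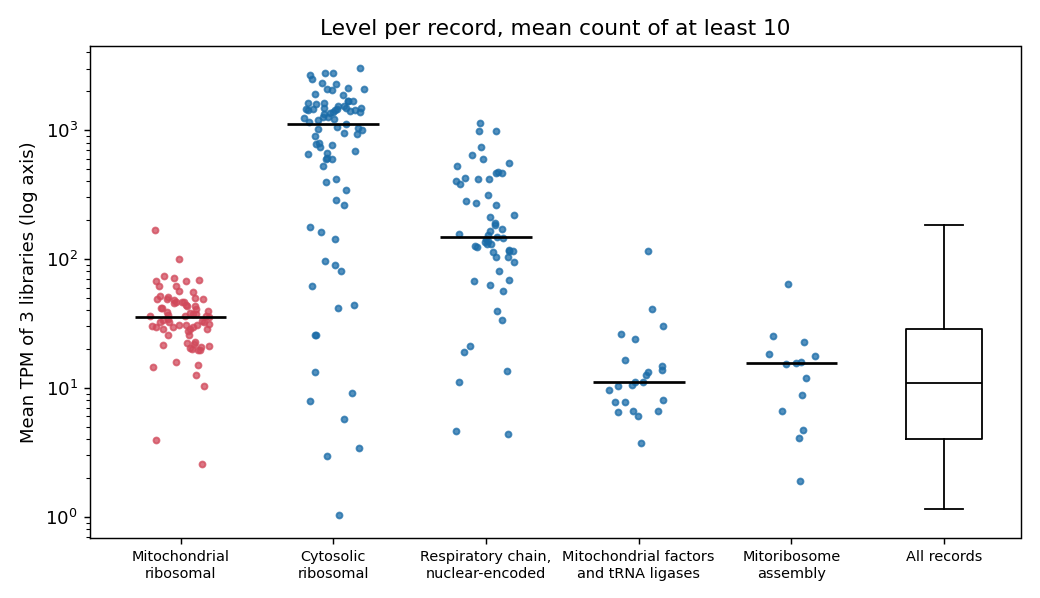
Mean TPM over the 3 libraries (log axis) of each record averaging 10 or more counts, by gene list. Points are records and black lines list medians, and the box shows all records with whiskers from the 5th to the 95th percentile. The mitochondrial ribosomal records lie around a median of 35.4 TPM, between the respiratory chain subunits at 148 TPM and the assembly genes at 15.5 TPM.

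In the small subunit, S11 was the most abundant member. S11, whose bacterial counterpart sits on the platform of the subunit, had 803, 885 and 1092 counts, or 89.3, 97.9 and 111 TPM in replicates 1, 2 and 3 (99.5 ± 11.1, SD, n = 3). Its lowest library lay above the highest of S33, the next protein, which had 56.4, 58.1 and 70.0 TPM. S33 (61.5 ± 7.45 TPM), S25 (55.5 ± 8.30), S18b (51.0 ± 9.20) and S18c (49.2 ± 6.26; SD, n = 3 each) followed, and their values overlapped between neighbours. S33, S25 and S18b have no counterpart in bacteria, whereas S18c is the member of the S18 family that corresponds to bacterial S18.

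Several proteins that organise the small subunit in bacteria had lower means than the proteins above, on both sides of the small-subunit median of 37.4 TPM. S7, which binds the head of the small-subunit RNA in bacteria, had the lowest main record apart from S29, at 12.8, 13.2 and 17.2 TPM (14.4 ± 2.40, SD, n = 3). Its partners in the bacterial head, S10 and S14, stood at 46.3 ± 8.98 and 36.2 ± 4.02 TPM (SD, n = 3). S15, an early binder of the RNA in bacteria, had 32.5 ± 2.28 TPM, and S17, another RNA-binding protein, had 45.7 ± 6.87 TPM (SD, n = 3). S24, the counterpart of bacterial S3, at 27.7 ± 4.41 TPM, and S5 at 37.4 ± 2.21 TPM (SD, n = 3) belong to the side on which messenger RNA enters in bacteria. S2 had 22.3 ± 3.51 TPM (SD, n = 3). Among proteins particular to mitochondria, S34 (21.2 ± 4.97 TPM) and S35 (19.6 ± 1.97 TPM) had the lowest main records apart from S29, and S22, S31 and S27 lay close together at 43.0, 41.8 and 41.8 TPM. The record named 28S ribosomal protein S36, a name that mammalian work has since moved to a component of the 2-oxoglutarate dehydrogenase complex, had 65.5, 64.0 and 84.5 TPM (71.3 ± 11.4, SD, n = 3).

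**Figure D2:**
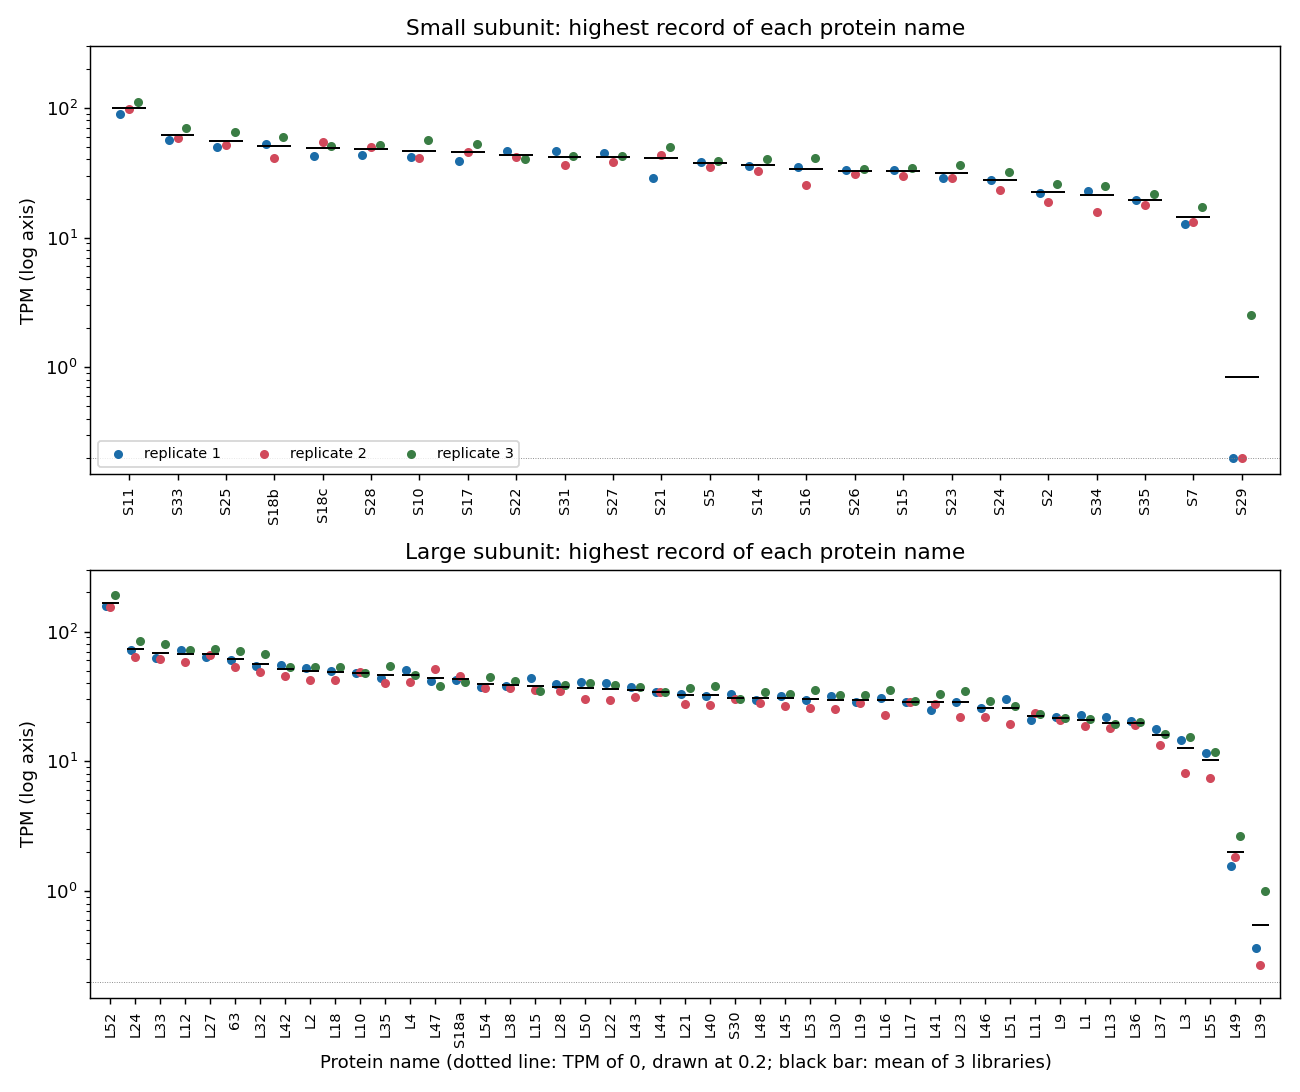
Deposited TPM (log axis) of the highest record of each protein name in the 3 libraries, with small-subunit proteins above and large-subunit proteins below, ordered by mean. Points are libraries, black bars are means, and S36 and L34 are not drawn. Most proteins lie within a narrow band, with L52 and S11 at the top and S29, L49 and L39 far below the rest.

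The large subunit was led by L52, a protein particular to mitochondria. Its main record (contig09697, 422 to 1112, plus strand) had 566, 556 and 750 counts, or 157, 154 and 191 TPM (167 ± 20.7, SD, n = 3), and its lowest library was above the highest value of every other member. The record lay higher than 95.8% of all records detected in every library. L24, an early assembly protein in bacteria, came next with 72.1, 64.1 and 83.9 TPM (73.4 ± 9.93, SD, n = 3). L33 had 62.7, 61.8 and 79.6 TPM in the respective libraries. L12 (67.7 ± 8.43 TPM) and L27 (67.4 ± 4.62 TPM; SD, n = 3 each) lay at the same level, and L33, L12 and L27 overlapped with L24 and with each other. The L27 protein reaches close to the peptidyl transferase centre in bacteria. Ribosomal protein 63, named without a subunit and part of the large subunit in mammals, had 61.2 ± 8.56 TPM (SD, n = 3).

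The factor-binding stalk was represented by both of its proteins. L10, the base to which the flexible stalk is attached, gave 48.0, 48.8 and 48.2 TPM (48.3 ± 0.409, SD, n = 3), and L12, present in several copies per ribosome in bacteria, gave 72.4, 58.0 and 72.7 TPM. L12 was above L10 in every library. L11, at the foot of the stalk, lay lower at 22.5 ± 1.48 TPM, and L1, which forms the stalk on the opposite side, had 20.8 ± 1.91 TPM (SD, n = 3).

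Proteins at the core of the large subunit lay on both sides of the median of the members. L2, next to the peptidyl transferase centre in bacteria, had 49.4 ± 5.94 TPM, and L4, which reaches into the exit tunnel, had 46.0 ± 5.16 TPM (SD, n = 3). L22, the other protein known to line the tunnel in bacteria, had 36.2 ± 5.61 TPM, and L23, at the tunnel exit, had 28.4 ± 6.43 TPM (SD, n = 3). L3, an early assembly protein of the core, was the lowest of these with 14.6, 8.05 and 15.3 TPM (12.6 ± 3.99, SD, n = 3). L55, particular to mitochondria, was lower still with 11.7, 7.40 and 11.8 TPM (10.3 ± 2.51, SD, n = 3). L37 had 15.8 ± 2.30 TPM, L36 19.8 ± 0.701 TPM and L13 19.9 ± 2.02 TPM (SD, n = 3).

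Small-subunit records were slightly higher than large-subunit records. The median log2 TPM of the small subunit exceeded that of the large subunit by 0.29 ± 0.07 (SD, n = 3), and the difference stayed between 0.23 and 0.35 under every alternative tried. Proteins with a bacterial counterpart exceeded mitochondrion-specific proteins by a median of 0.16 ± 0.03 on the log2 TPM scale (SD, n = 3), a difference that was 0.51 among records that overlap no other record. No p was given for either, since 3 libraries do not allow a low one and proteins are not replicates. Across the 75 members with a mean count of at least 10, exonic length and TPM were weakly related (Spearman rho = -0.19), close to the value over all records (rho = -0.22). These points share libraries and the length by which TPM is divided. The median exonic length was 774 bp in members and 1452 bp in all records of that depth.

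Counts of at least 10 on average were lacking for S29, L34, L39 and L49, and the records beside them were examined. S29, known in mammals as death-associated protein 3, a GTP-binding protein, had 0, 0 and 27 counts in its longest record (scaffold01274, 260899 to 262714, plus strand). The same stretch and strand held a record without a description with 196, 287 and 394 counts and a record of G patch domain-containing protein 3 with 334, 366 and 306 counts. L39 (scaffold01274, 485609 to 487668, plus strand) had 4, 3 and 12 counts and lay under an undescribed record on the same strand with 1152, 1175 and 1491 counts. Both proteins were thus at or near 0 in loci with reads, and which gene model these reads came from was not tested. Both L34 records were empty and lay opposite a record described as zig-8-like, with 259, 221 and 251 counts. L49 had 6, 7 and 11 counts on a contig where no other record overlapped it.

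Of the members, 64 overlapped another record, and 15 proteins had more than 1 record (39 records), so reads could have been divided between models. The share of overlapping records was 66.0% in members and 74% in the whole table. The second S33 record, which shares most of its span with the main one, had 50, 33 and 78 counts, and the 2 overlapping L16 records had 122, 91 and 155 against 55, 44 and 75 counts. Other proteins were split over separate scaffolds. S5 had 323, 295 and 357 counts in its longer part and 127, 112 and 99 in the other, with means of 37.4 and 36.3 TPM. L38 had 278, 270 and 328 counts in its longer part (38.8 ± 2.29 TPM) and 27, 55 and 73 in the shorter one (22.0 ± 9.08 TPM; SD, n = 3 each). The S5 parts overlapped in TPM, whereas the shorter part of L38 was below the longer one in each library. Second records of L12, L45, L47 and L52 stayed at 15 counts or fewer in every library. The record of L53 overlapped 6 others, among them models of calcium channel flower and of the RNA polymerase I subunit RPA12, and its 547, 481 and 710 counts are uncertain for that reason. The L3, L55 and S34 records also overlap models of other genes over much of their span, and their levels are uncertain likewise.

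To ask whether members differed between libraries beyond counting noise, each record averaging 10 or more counts was put to a chi-square test for equal CPM, with Benjamini-Hochberg adjustment over all 15516 records. Of the 75 members tested, 30 passed (40.0%), while 54.5% of all records and 50.9% of records of like length and mean count passed. With replicate 2 left out, 12 members passed (15.6%, against 45.0% of all records), and with replicate 3 left out 16 (21.6% against 38.6%). Without replicate 1, 21 members passed (28.4%), a share close to that of all records (29.0%). The gap between members and all records was also small, or ran the other way, under other settings: 56.0% of members and 57.3% of all records passed with library totals, and 38.8% and 30.7% with no filter on counts. Cytosolic ribosomal proteins passed in 77 of 83 cases (92.8%) and respiratory chain subunits in 48 of 57 (84.2%), but their counts are much higher and give the test more power. Among the assembly genes 6 of 14 passed, and of the factors and ligases 6 of 23.

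The differences between libraries were small. Among members with a mean count of at least 50 the highest library exceeded the lowest by a median of 1.25-fold in CPM, and over all such records by 1.36-fold. No member with a mean CPM of at least 10 (69 records) had a library 2-fold above or below both others, whereas 4.19% of all such records did. This was not particular to the members. The count was also 0 among 75 cytosolic ribosomal, 51 respiratory chain, 16 factor and ligase and 9 assembly records. At 1.5-fold there were 3 such members, S21 with replicate 1 low and L3 and L55 with replicate 2 low, and over all records these shares were 4.98% for replicate 1 and 1.55% for replicate 2. The biological coefficient of variation estimated in edgeR had a median of 0.203 in members and 0.263 in all records averaging 1 CPM or more. Its median was 0.208 in cytosolic ribosomal proteins, 0.203 in the respiratory chain, 0.234 in factors and ligases and 0.239 in assembly genes. At 10 CPM or more the medians were 0.198 in members and 0.214 in all records.

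**Figure D3:**
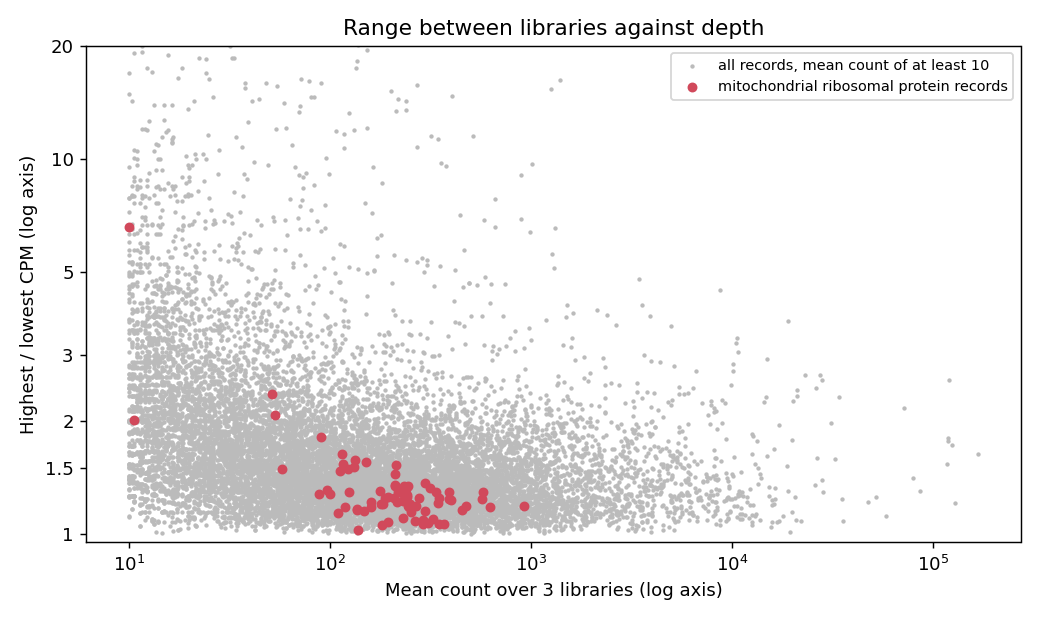
Ratio of the highest to the lowest CPM of each record (log axis) against its mean count over 3 libraries (log axis), for records averaging 10 or more counts. Red points are the 75 mitochondrial ribosomal records and grey points all records, of which 357 with a ratio above 20 or a library at 0 are off the plot. Among the members, 64 stay at or below a ratio of 1.5 and 4 exceed 2, all with low counts.

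L3 varied most among the well-covered members with a single record. Its CPM was 11.9 in replicate 1, 6.59 in replicate 2 and 11.9 in replicate 3, so that only replicate 2 was low (adjusted p = 0.00102, chi-square test). L3 was also the only 1 of the 97 members among the genes in the study's expression clusters. Those genes were chosen for a difference between mutant and wild type under starvation, a contrast that these libraries do not hold. The share of all records in the clusters was not counted, so nothing is drawn from this number. L55 had the same shape, with 17.2, 10.9 and 16.6 CPM (adjusted p = 0.00269, chi-square test), as had L51 with 20.7, 13.3 and 17.3 CPM. S34 was low in replicate 2 as well, at 26.1, 17.9 and 27.3 CPM. S21, a small protein of the mRNA exit side in bacteria, was instead low in replicate 1, with 9.33, 14.0 and 15.3 CPM (adjusted p = 0.00342, chi-square test). L47, which corresponds to bacterial L29, was among the 7 of 75 members with their highest value in replicate 2, at 23.1, 28.7 and 19.9 CPM. The largest ratios among members averaging 50 or more counts were those of secondary records, 2.36 for the shorter part of L38 and 2.07 for the second S33 record. The whole span of L3 lies under a 5-oxoprolinase record on the opposite strand, with 909, 878 and 884 counts. L55, S34 and S21 also overlap other records, whereas L51 and the main L47 record overlap none. The part of these overlaps in the values was not tested.

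Other members hardly moved. L17, near the tunnel exit in bacteria, had 15.6, 15.8 and 15.4 CPM, a ratio of 1.03 between the highest and the lowest library. L9 (1.06), L38 in its longer part (1.06), L44 (1.06), L10 (1.07) and S26 (1.07) were the next in this ratio. None of these records passed the chi-square test.

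Across the members the shifts had a common direction in replicate 2. For each record, the log2(CPM + 0.5) of 1 library was set against the mean of both others, and the difference is called its deviation. The median deviation over the 75 members was 0.07 in replicate 1, -0.17 in replicate 2 and 0.13 in replicate 3, against 0.02, 0.01 and 0.02 over all records. Replicate 2 was the lowest library in 52 of 75 members (69.3%), and in 30% of all records. Replicate 1 was the lowest in 12 members and replicate 3 in 11, against 37.1% and 32.8% of all records. The highest library was replicate 3 in 39 members, replicate 1 in 29 and replicate 2 in 7, and in 31.9%, 39.2% and 28.9% of all records respectively. Records of like length and mean count took part of this shift, with medians of -0.00, -0.07 and 0.10, and replicates 1, 2 and 3 were the lowest in 38.6%, 39.6% and 21.7% of them. The order of replicate 3 over 1 over 2 was found in 40.0% of members, 12.3% of all records and 17.5% of records of like length and count. Short records as a whole, up to 1616 bp, had medians of -0.05, -0.03 and 0.11, and longer ones 0.10, 0.04 and -0.11, so that record length moved with the library, and its part in the members' shift was not tested. The negative deviation of replicate 2 held under each scaling, filter and pseudocount tried and in each pair of libraries. The sign of replicate 1 was less stable, at -0.03 with library totals in place of TMM sizes and -0.06 with replicate 2 left out.

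The cytosolic ribosomal proteins had another pattern. Their median deviations were -0.37, 0.13 and 0.23 in replicates 1, 2 and 3, with replicate 1 the lowest library in 76 of 83 records. In the respiratory chain list they were -0.24, -0.04 and 0.28, with replicate 1 the lowest in 45 of 57, while replicate 1 was the lowest in 37.1% of all records. In the assembly genes replicate 2 was again low, with 0.14, -0.18 and -0.01, and the factors and ligases had 0.10, -0.05 and -0.03. Since each list was read in the same 3 libraries, these values describe the libraries and no test of a difference between lists was made.

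**Figure D4:**
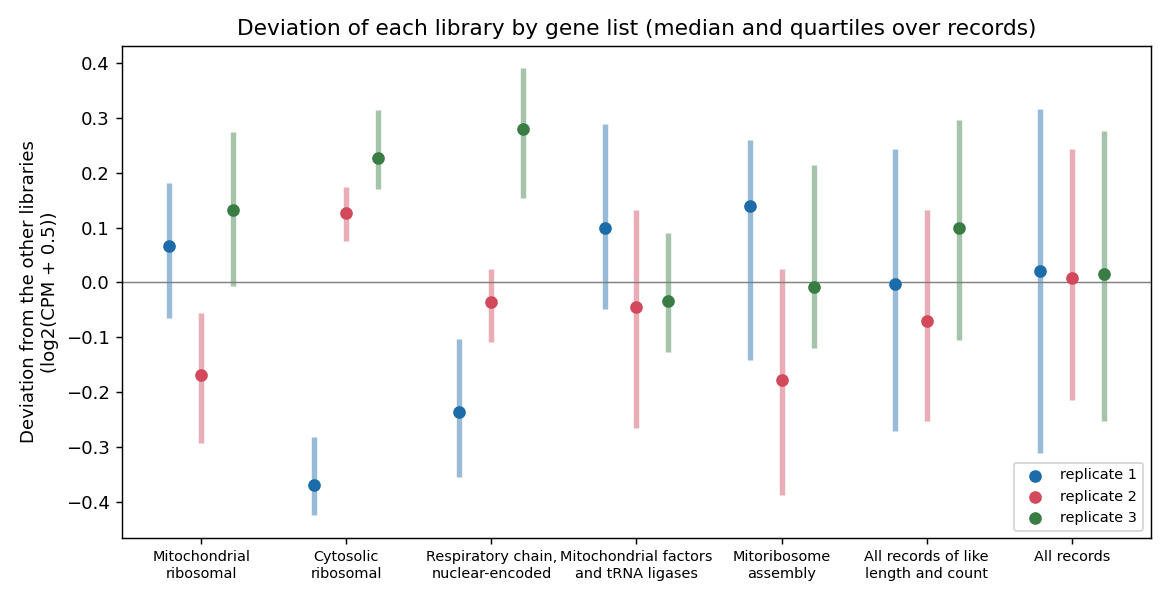
Deviation of each library from the mean of the other libraries, in log2(CPM + 0.5), by gene list. Points are medians over records averaging 1 CPM or more and bars run from the lower to the upper quartile. The mitochondrial ribosomal records have replicate 2 low at -0.17, and the cytosolic ribosomal and respiratory chain records have replicate 1 low at -0.37 and -0.24.

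The members were spread over 54 scaffolds and contigs and formed no cluster. Only S27 and L54, a small-subunit and a large-subunit protein, lay within 500 bp of each other as different proteins, and the next pair, S14 and L42, was 24825 bp apart. S27 (scaffold02121, 649791 to 651553, minus strand) and L54 (651709 to 652318, plus strand) point away from each other with 155 bp between them. S27 had 58.7, 49.4 and 52.3 CPM and L54 had 16.1, 15.8 and 18.1 CPM, so the highest library was replicate 1 for S27 and replicate 3 for L54. Neither record passed the chi-square test (adjusted p = 0.0505 for S27 and 0.477 for L54). Such a head-to-head neighbour, within 500 bp and on the opposite strand, was found for 30 of the 79 members detected in every library (38.0%), for 16.4% of all detected records and for 18.3% of those with a description. Among cytosolic ribosomal proteins the share was 27.1% and among respiratory chain subunits 33.9%. It was 42.9% in assembly genes (6 of 14), above that of the members, and 17.4% in factors and ligases. Members that overlap no other record had 31.2%. The neighbours of the members included genes of mitochondria, such as cysteine desulfurase beside ribosomal protein 63 at 211 bp and decaprenyl-diphosphate synthase subunit 1, of ubiquinone synthesis, beside L32 at 156 bp. Others serve transcription or protein turnover, such as Mediator subunit 8 beside S25 at 53 bp, negative elongation factor D beside L22 at 150 bp and proteasome subunit beta type-7 beside L53 at 262 bp. Genome coordinates are those of the deposited table.

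Among the other genes of mitochondrial translation, elongation factor Tu, which brings aminoacyl-tRNA to the ribosome, was the most abundant with 122, 106 and 120 TPM (116 ± 8.77, SD, n = 3). Its exchange factor, elongation factor Ts, had 41.0 ± 3.04 TPM, and elongation factor G, which moves the ribosome along, had 32.3, 20.8 and 25.9 TPM (SD, n = 3). Initiation factor 2 had 11.2 ± 1.31 TPM and the ribosome-recycling factor 16.5 ± 2.64 TPM (SD, n = 3). Among the tRNA ligases detected, the values ran from 6.03 TPM for 1 of the aspartate records to 30.2 TPM for 1 of the isoleucine records. All of the ligase means lay below 33.2 TPM, the mean of the ribosomal protein medians. Among the assembly genes, dimethyladenosine transferase 1, which methylates the small-subunit RNA, had 64.2 ± 5.67 TPM, GTPase Era had 12.0 ± 2.40 TPM and nitric oxide-associated protein 1 had 18.2 ± 4.41 TPM (SD, n = 3). Of 3 records of mitochondrial ribosomal proteins described under other names, ICT1, a peptidyl-tRNA hydrolase built into the mammalian large subunit, had 40.4 ± 5.49 TPM and the growth arrest and DNA damage-inducible proteins-interacting protein 1 had 37.4 ± 1.53 TPM (SD, n = 3), both near the median of the members. The third, a coiled-coil-helix protein, had no counts.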

How the data were processed

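Poly(A) RNA of 3 wild-type pools was sequenced. Per the paper's methods, the authors mapped paired reads in CLC Genomics Workbench 12 to the wFleaBase genome and deposited total counts per gene record without normalization, together with RPKM and TPM values. The deposited RPKM values were scaled by the authors to library size and length, and the deposited TPM values to a common sum. Genome version, gene models and strand setting: not given in the sources used here. Hence reads of overlapping records on opposite strands cannot be told apart. Exonic lengths were recovered from counts and RPKM. A further deposited column of scaled values was not used.

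TMM sizes and dispersions (intercept-only model) came from edgeR 4.0.16 (R 4.3.3), and DESeq2 1.42.0 gave alternative size factors. The chi-square test of homogeneity was run where a record averaged 10 or more counts, adjusted by Benjamini-Hochberg at 0.05, and was tested on simulated data. Deviations were taken where a record averaged 1 CPM or more, with a pseudocount of 0.5. Levels of lists are medians over records detected in every library. Like length and count means the 5th to 95th percentile of the members. Further computation was done in scipy 1.17.1, numpy 2.4.6 and pandas 2.3.3 (Python 3.11.15), with plots in matplotlib 3.10.9. The members, the lists and the tests were chosen with earlier results of these data known. Named members were the 5 highest and 5 lowest of each subunit by TPM, the 6 most and 6 least variable, members of study clusters, proteins with several records, and L10, L12 and S12. Others were named for their place in the ribosome, with their values seen. Alternatives were other scalings, filters, pseudocounts, units and record sets, and each replicate left out. Comparison with records of like length and count, the subunit by letter, and the cytosolic list without the S12 record named for mitochondria, were added after seeing the data.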

Additional observations from a re-analysis of the deposited data

How the results depend on the processing

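The number of members beyond counting noise was 31 with DESeq2 size factors (41.3%, all records 54.5%), 42 with library totals (56.0%, all 57.3%), 31 without a filter (38.8%, all 30.7%) and 31 at a mean count of at least 50 (42.5%, all 63.8%), against 30 of 75 (40.0%, all 54.5%). Among members that overlap no other record it was 14 of 31 (45.2%). With 1 replicate left out it ranged from 12 to 21. The median deviation of replicate 3 rose to 0.27 with library totals, a scaling that moved the median of all records in that library by 0.13. The number of members with a library standing apart was 3 at 1.5-fold (4.35%, all records 16.9%) and 2 at a mean CPM of at least 1 (2.67%, all 12.7%), against 0 (all 4.19%). The median level was 23.3 as RPKM, 29.99 TPM over all members with a pseudocount of 0.1 and 37.7 TPM without overlapping records, against 33.2 TPM. The class difference of 0.16 was 0.21 over all members and 0.51 without overlapping records. For the other values, of 152 alternative values of 38 named members, 148 moved by less than 1 SD and 4 by more. No paired analysis was possible because the series holds 1 group. S29, L34, L39 and L49 averaged fewer than 10 counts and were not in the main test.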
